A study of Macaca mulatta with 13 samples.

Results

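Autophagy, mitophagy and lysosome genes were described in thigh muscle (vastus lateralis) from old male rhesus macaques, Macaca mulatta, fed a control diet or a diet with fewer calories over many years (calorie restriction, CR). The list held 32 genes, chosen by symbol, and a gene counted as measured where the platform annotation gave a probe set that 1 symbol alone. This left 22 measured genes, of 14132 genes so named on the array. The other 10, ATG14, WIPI1, ATG12, MAP1LC3A, BNIP3, BNIP3L, PINK1, FUNDC1, LAMP1 and CTSB, are not analysed here, so that of the dedicated mitophagy genes on the list none has a value. Each of the 13 animals gave 1 array. Controls (n = 5) were aged 27 to 30 years at collection, the CR group (n = 8) was aged 27 to 32 years, and restriction had lasted 18.5 years. Strain, the size of the restriction and the age of each animal are not given in the sources used here. Animals are named below by diet and replicate number.

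Autophagy encloses cytoplasm in a double membrane that fuses with the lysosome, where hydrolases break the cargo down. The ULK kinase complex and the Beclin lipid kinase complex start the membrane, and ubiquitin-like ATG8 proteins (the LC3 and GABARAP families) are then joined to lipid on it by a set of conjugation enzymes. Cargo receptors bind ATG8 proteins, among them SQSTM1 (p62) for ubiquitin-tagged protein, while BNIP3, FUNDC1 and PINK1 serve the removal of mitochondria. In skeletal muscle the process is known to respond to fasting, and it clears damaged mitochondria and protein aggregates.

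The muscle label was checked first. All 6 measured fibre genes of the 10 looked for were bright, from a mean signal of 2444 for the titin gene TTN to 119191 for TNNT3, a fast troponin. Between any 2 arrays, r over the 26383 tested probe sets was at least 0.834 and at most 0.940; probe sets are not independent replicates. Control 4 had the lowest summed signal of the fibre genes, 260409, where controls reached 512046 and CR animals ran from 330561 to 572032. It also had the highest summed signal among controls for 9 of 11 macrophage and myeloid genes looked for (11381, controls from 6404, CR 4670 to 14480), 6 of 8 endothelial genes (17495, controls from 5965, CR 4271 to 9716) and 5 of 6 matrix genes (122025, controls from 29864, CR 34655 to 82973). The same held for 3 of 6 adipocyte genes (27424, CR 3268 to 33927) and 3 of 5 Schwann cell genes (14668, CR 4376 to 11056), while 4 of 6 blood genes ranged from 603 to 4326 in controls and from 973 to 4430 in CR. No measured marker was at the floor in every animal. Control 4 also had the highest log2 ratio of actin 3-prime over 5-prime signal, a measure of RNA quality, 2.41 (CR up to 2.08). Its GAPDH ratio, 0.73, was not the highest (controls up to 0.76). Its array quality weight was the lowest, 0.48, with CR 1 next at 0.80. Between the diets, all 5 tested endothelial genes were lower in CR, with a median log2 difference (CR minus control) of -0.50. Of the fibre genes 4 were higher and 2 lower (median 0.28). The medians of the other marker lists lay between -0.66 (adipocyte) and -0.056 (matrix). No marker gene passed the threshold given below. The part of these cells in the values below was not tested. Settings with these ratios and weights are given at the end. Values without control 4 stand beside the genes whose difference it turned or moved most. In whole muscle, fewer cells of a type and less RNA per cell cannot be told apart.

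No call was made for any of the 22 genes between the diets by limma's moderated test of log2 signal, and the measured differences were small. The threshold was a Benjamini-Hochberg adjusted p under 0.05 over all tested probe sets, which called 0% of them. Every one of the 22 had an adjusted p of 0.999, and 0 had an unadjusted p under 0.05, a level that 2.43% of tested probe sets reached (1.25% higher and 1.18% lower in CR). Differences (CR minus control, log2) ran from -0.30 for ULK2 to 0.30 for SQSTM1, with 11 genes higher and 11 lower in CR, where 48.1% of all tested probe sets were higher. The median of the 22 was -0.015, beside -0.012 over all tested probe sets, and the median size of a difference was 0.084, beside 0.17. The groups overlapped for all 22 genes, and 0.072% of tested probe sets had groups that did not.

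The precision of these genes bounds what was not detected. The 95% interval of a difference, before adjustment, had a median half-width of 0.35 among the 22 genes and 0.55 over all tested probe sets, and the median residual SD was 0.27 against 0.45. At the brightest probe set, the whole interval of 14 of the 22 lay within 0.5 of 0 on the log2 scale. The bound was set after the values were seen and stands for 1.41-fold. Of all tested probe sets 18.2% had an interval within it. The 22 genes were read from their brightest probe sets, and 21 of these were among the brightest 25% of probe sets. The comparisons with all tested probe sets, here and for the size of a difference, are thus not matched for brightness. The 8 genes with an interval past the bound of 0.5 were ULK1, ULK2, PIK3C3, ATG4B, MAP1LC3B, SQSTM1, TFEB and LAMP2. For these a change of that size was not excluded by the interval. For BECN1, ATG13, ATG5, ATG7, ATG16L1 and GABARAPL2 a further tested probe set had an interval past that bound.

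**Figure D1:**
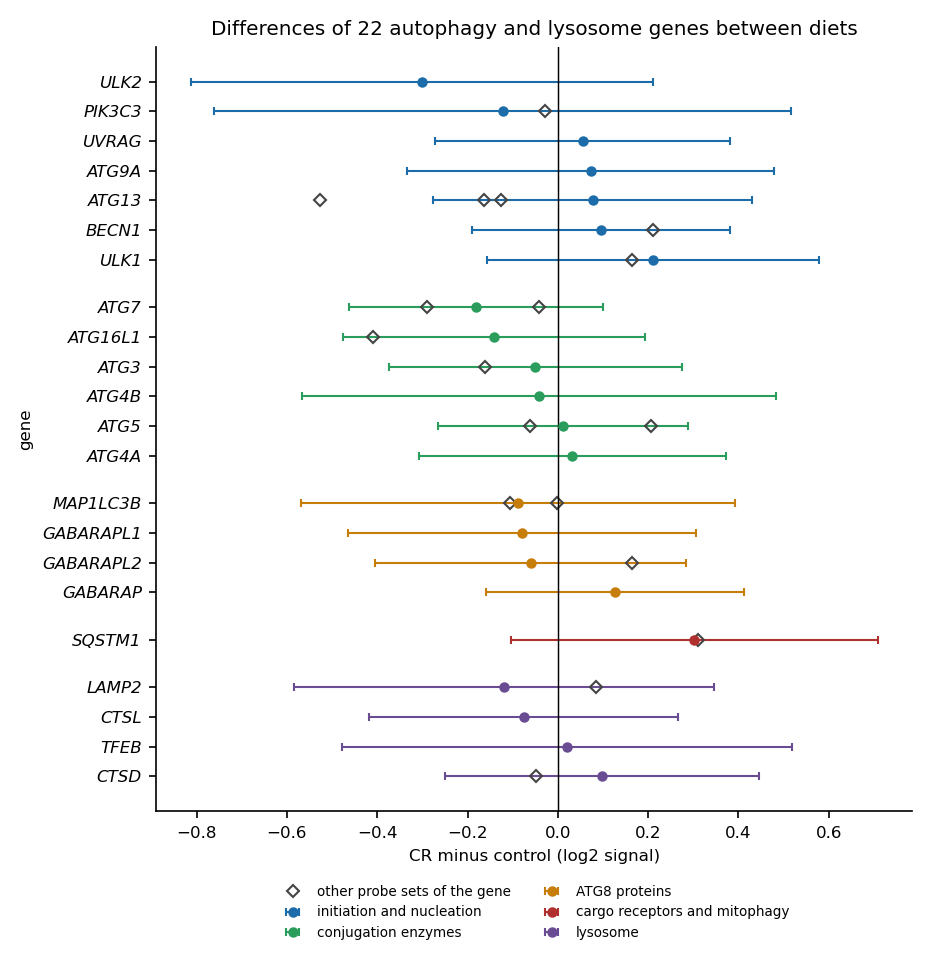
Difference between CR and control in log2 signal (x axis) for each measured gene (y axis), grouped by role, with the 95% interval before adjustment as bars (5 control and 8 CR animals). Filled points are the brightest probe set of a gene and open diamonds its other tested probe sets; every interval includes 0, and the filled points run from -0.30 for ULK2 to 0.30 for SQSTM1.

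Initiation and nucleation genes gave no difference that passed, and 7 of 9 were measured. Of these 5 were higher and 2 lower in CR, with a median log2 difference of 0.072. ULK1, the kinase that starts autophagy when nutrient signals fall, had log2 signals of 10.48, 10.13, 9.84, 9.66 and 9.75 in controls 1 to 5. In CR it ran from 9.85 in CR 3 over a median of 10.18 to 10.57 in CR 5. Control 1 was thus above most CR animals, while controls 3, 4 and 5 were below all of them. The difference was 0.21 ± 0.17 (SE; 95% interval -0.16 to 0.58; limma adjusted p = 0.999), or 1.16-fold, with 6 of 8 CR animals above the control mean, and the other probe set of ULK1 gave 0.17. Without control 4 it was 0.13 and without control 1 it was 0.34.

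ULK2, the paralogous kinase, went the other way without passing. Its control signals were 8.05, 8.53, 7.55, 7.90 and 7.75, and its CR signals ran from 6.88 in CR 3 over a median of 7.73 to 8.00 in CR 1. Controls 1 and 2 were above every CR animal, and CR 3 and CR 4 below every control, with overlap in between. The difference was -0.30 ± 0.24 (SE; interval -0.81 to 0.21), and -0.16 without control 2 or -0.19 without CR 3. BECN1, which encodes Beclin, the scaffold of the lipid kinase complex, had control signals of 12.39, 12.67, 12.60, 12.62 and 12.56. In CR it ran from 12.27 in CR 2 over 12.64 to 12.92 in CR 8, a range that covered the controls on both sides. The difference was 0.096 ± 0.14, its other probe set gave 0.21, and the value without control 1 was 0.052.

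Among the remaining genes of this step, PIK3C3, the lipid kinase itself, had the largest spread of the 22 genes. Its SD was 0.62 in controls and 0.58 in CR, and the difference of -0.12 ± 0.30 (SE) turned to 0.027 without control 5. ATG9A, a membrane protein carried on vesicles to the growing membrane, differed by 0.072 ± 0.19, and by -0.077 without control 4. UVRAG, a partner of Beclin, differed by 0.055 ± 0.15, and by -0.013 without control 3 or 0.11 without control 4. ATG13, a subunit of the ULK complex, differed by 0.077 ± 0.17 at its brightest probe set, but its other 3 probe sets lay between -0.53 and -0.13.

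Conjugation enzymes, of which 6 of 7 were measured, had a median log2 difference of -0.046, with 2 higher and 4 lower in CR and none past limma's threshold. ATG7, the E1-like enzyme that activates both ATG8 proteins and ATG12, had control signals of 10.33, 10.05, 10.11, 10.28 and 10.02. In CR it ran from 9.70 in CR 3 to 10.16 in CR 6, with a median of 10.004. Controls 1 and 4 were above every CR animal, and 7 of 8 CR animals were below the control mean. The difference was -0.18 ± 0.13 (SE; interval -0.46 to 0.099), or 0.882-fold. ATG7 had the smallest residual SD of the 22 genes, 0.14. It was the single member with an exact two-sided permutation p under 0.05 (p = 0.0497 over 1287 splits of the animals), where 2.73% of tested probe sets had one. After adjustment over all of them that test gave 0.999. All 3 ATG7 probe sets were lower in CR (-0.29 and -0.041 for the others), and the difference stayed between -0.22 and -0.14 with any 1 animal left out. Across the 13 animals, however, these others followed the brightest one weakly or not at all. They gave r = 0.325 (rho = 0.176) and r = -0.091 (rho = -0.055).

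ATG16L1, which places the conjugation enzymes on the membrane, had control signals of 10.23, 10.36, 10.22, 9.99 and 10.58, and CR signals from 9.78 in CR 5 over 10.07 to 10.52 in CR 8. Control 5 was above all CR animals and the rest overlapped. Its difference was -0.14 ± 0.16 (SE), or -0.066 without control 5 and -0.21 without control 4. The other probe set gave -0.41 ± 0.24, but across the 13 animals it ran against the brighter one (r = -0.587, rho = -0.626), so that they did not give the same ranking of animals. ATG3, the E2-like enzyme that hands ATG8 proteins to lipid, had control signals of 12.23, 12.38, 12.81, 12.96 and 12.50, and CR signals from 12.27 in CR 5 over 12.46 to 12.78 in CR 2. All 8 CR animals lay inside the control range. The difference was -0.050 ± 0.15, and 0.047 without control 4, and the other tested probe set gave -0.16.

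The other conjugation genes were near 0 at their brightest probe sets. ATG5, which joins ATG12 in the E3-like complex, differed by 0.012 ± 0.13 (SE), with the narrowest interval of the 22 genes, -0.27 to 0.29. Its other probe sets gave 0.21 (interval -0.35 to 0.76) and -0.062. ATG4A and ATG4B encode proteases that trim ATG8 proteins before they are conjugated. They differed by 0.032 ± 0.16 and -0.043 ± 0.25. Without control 4 the ATG4A value was -0.0040 and that of ATG5 was 0.029. The ATG4B value ranged from -0.23 without control 4 to 0.13 without control 1.

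ATG8 proteins themselves, 4 of 5 measured, had a median log2 difference of -0.070, with 1 higher and 3 lower in CR and none called. GABARAP had control signals of 14.47, 14.41, 14.22, 14.04 and 14.20, and CR signals from 14.05 in CR 4 over 14.40 to 14.62 in CR 8. Here 7 of 8 CR animals were above the control mean, though control 1 was above 4 of the 8. The difference was 0.13 ± 0.14 (SE; interval -0.16 to 0.41), and 0.070 without control 4. GABARAPL2 had control signals of 13.99, 14.53, 14.41, 13.81 and 13.88, and CR signals from 13.80 in CR 8 over 14.03 to 14.57 in CR 3. Only CR 3 among the CR animals reached the level of controls 2 and 3. The difference was -0.060 ± 0.16, or 0.040 without control 2 and -0.14 without control 4, and the other probe set gave 0.17.

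GABARAPL1, a member of the family known as a target of FOXO factors in muscle, had control signals of 10.05, 9.14, 9.58, 9.94 and 10.09. Its CR signals ran from 9.35 in CR 3 over 9.70 to 10.03 in CR 4, inside the control range for all 8 animals. The difference was -0.080 ± 0.18 (SE), and 0.0022 without control 5 or -0.033 without control 4. MAP1LC3B, the LC3 form most used as a marker of autophagosomes, had control signals of 10.04, 10.12, 9.31, 10.33 and 9.83. In CR it ran from 8.89 in CR 3 over 9.95 to 10.28 in CR 5, and CR 3 was the single animal below every control. The difference was -0.088 ± 0.23, or 0.012 without control 4 and 0.048 without CR 3. The other 2 probe sets gave -0.11 and -0.0022, and they correlated with the brightest one across the animals (r = 0.701 and 0.803). Without CR 3 and control 3 these r were 0.237 and 0.309.

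**Figure D2:**
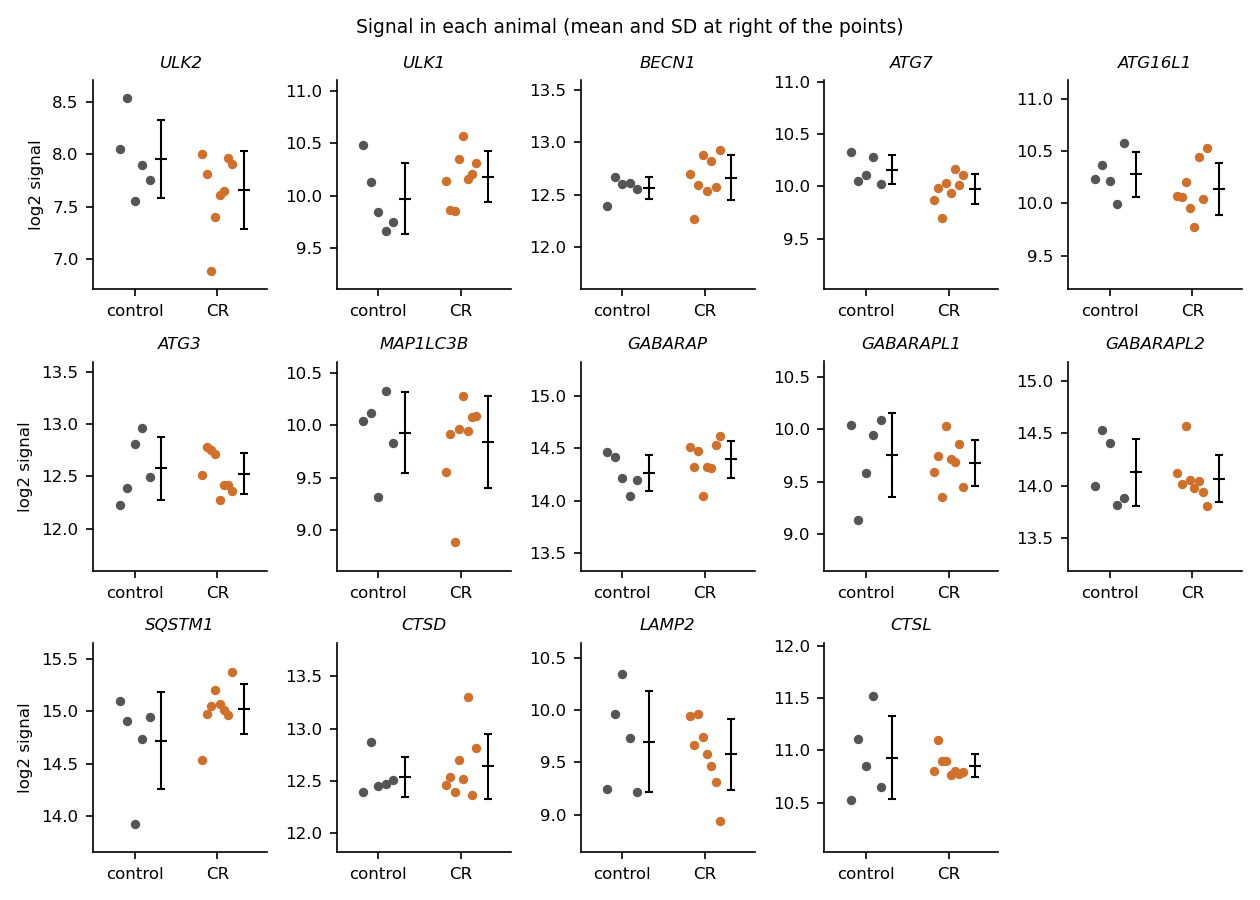
Log2 signal (y axis, each panel spanning the same range of log2 units) in each control (grey) and CR animal (orange) for the 14 genes described sample by sample, with the mean and SD of each diet to the right of its points. The groups overlap in every panel; control 3 is the lowest animal for SQSTM1 and CR 6 the highest for CTSD.

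SQSTM1 was the one cargo receptor measured, of 5 receptor and mitophagy genes, and had the lowest p of the 22 genes in limma's test, without passing. Its control signals were 15.10, 14.91, 13.93, 14.73 and 14.95, and its CR signals ran from 14.54 in CR 1 over a median of 15.03 to 15.38 in CR 8. Control 3 was below every other animal, and 7 of 8 CR animals were above the control mean. The difference was 0.30 ± 0.19 (SE; interval -0.10 to 0.71), or 1.23-fold, with p = 0.134 before and 0.999 after adjustment in limma's test and p = 0.140 in the exact permutation test. A second, much dimmer probe set gave 0.31 ± 0.22, though the pair correlated weakly across the animals (r = 0.354, rho = 0.187). Without control 3 the difference was 0.10, and without control 1 it was 0.40.

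Lysosomal genes had a median log2 difference of -0.028 over the 4 of 6 that were measured, 2 higher and 2 lower in CR, and none was called. CTSD, the aspartic protease cathepsin D, had control signals of 12.40, 12.87, 12.45, 12.47 and 12.50. In CR it ran from 12.36 in CR 7 over 12.53 to 13.31 in CR 6, so that control 2 and CR 6 stood above the rest of their groups. The difference was 0.098 ± 0.16 (SE), and 0.0029 without CR 6; the other probe set gave -0.048. LAMP2, a membrane protein of the lysosome needed for fusion, had control signals of 9.24, 9.96, 10.34, 9.73 and 9.22, and CR signals from 8.94 in CR 8 over 9.63 to 9.96 in CR 3. The groups overlapped over most of their range, with control 3 the highest and CR 8 the lowest animal. Its difference was -0.12 ± 0.22, or 0.040 without control 3, and its other probe set gave 0.084.

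CTSL, the cysteine protease cathepsin L, had control signals of 10.53, 11.11, 10.85, 11.52 and 10.65, and CR signals from 10.76 in CR 5 over 10.81 to 11.10 in CR 2. All 8 CR animals lay inside the control range, with an SD of 0.11 against 0.40 in controls. The difference was -0.076 ± 0.16 (SE), and 0.072 without control 4, which had the highest CTSL signal. TFEB, the transcription factor that drives lysosomal and autophagy genes, differed by 0.020 ± 0.24 and by -0.18 without control 4. Its SD was 0.62 in controls and 0.30 in CR. Over the 22 genes the SD was larger among controls for 13, where 55.8% of tested probe sets had a larger SD there.

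Among roles with several measured genes, the mean of a role moved by up to 0.32 in a single animal (lysosomal genes in control 2). The mean of the 7 initiation genes, set against the control mean, ran from -0.11 to 0.076 among controls and from -0.21 in CR 3 to 0.29 in CR 8. Conjugation enzymes ran from -0.10 to 0.063 among controls and from -0.21 to 0.075 in CR. ATG8 proteins ran from -0.14 to 0.12 and from -0.20 to 0.082, and lysosomal genes from -0.15 to 0.32 and from -0.12 to 0.16. Control 4 was the lowest control for 7 of the 22 genes and the highest for 4. CR 3 was the lowest CR animal for 6 genes and CR 8 the highest for 5.

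**Figure D3:**
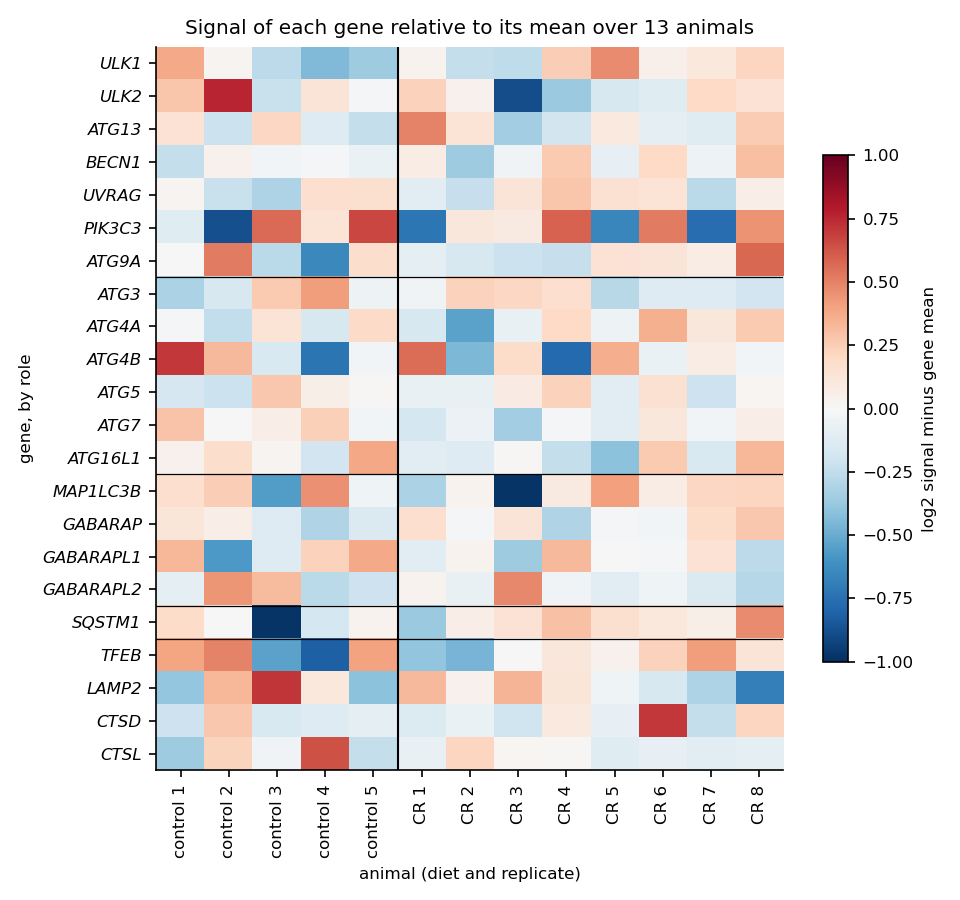
Log2 signal of each measured gene (rows, grouped by role with lines between roles) in each animal (columns, controls left of the line), minus the gene's mean over the 13 animals; red is above and blue below that mean. The deepest values belong to single animals, among them control 3 for SQSTM1 and CR 3 for ULK2 and MAP1LC3B, with no block that follows diet.

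Relations between genes across the 13 animals were computed for 4 pairs. Of 5 pairs fixed earlier 2 could be computed, and the other 3, BNIP3 with BNIP3L, LAMP1 with CTSD and CTSB with CD68, held a gene with no named probe set. After this was seen, 2 pairs with CTSD were added. None passed after adjustment over the 4. MAP1LC3B and GABARAPL1 gave r = 0.342 (permutation p = 0.256, adjusted p = 0.512) and rho = 0.137 (permutation p = 0.657), and r = -0.031 without CR 3 and control 3. SQSTM1 and GABARAPL1 gave r = 0.108 (permutation p = 0.731) and rho = 0.137 (permutation p = 0.657), and r = -0.126 without control 3 and CR 1. CTSD and LAMP2 gave r = -0.166 (permutation p = 0.584) and rho = -0.099 (permutation p = 0.750), and r = -0.357 without CR 6 and control 2. CTSD and CD68, a lysosomal protein of macrophages, gave r = -0.604 (permutation p = 0.0397, adjusted p = 0.159) but rho = 0.033 (permutation p = 0.921). Without CR 6 and control 2 this r was 0.105, so that the relation rested on those animals. With each diet's mean removed the adjusted permutation p was at least 0.147 for each of the 4.

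Probe sets of one gene gave a measure of how far single values can be read. Of the 22 genes 14 had several probe sets, and 13 had several that were bright enough to be tested. For 8 of these 13 all tested probe sets differed in one direction, and for 5 (ATG13, ATG5, GABARAPL2, LAMP2 and CTSD) they did not. Across the 13 animals 12 of 18 other probe sets correlated above 0 with the brightest one, with a median r of 0.402 and a range from -0.587 for ATG16L1 to 0.803 for MAP1LC3B. After adjustment over the 18, 5 had a permutation p under 0.05, those of BECN1, MAP1LC3B (both), GABARAPL2 and CTSD. The permutation adjusted p was 0.0185 for BECN1 (r = 0.802, rho = 0.615). For 3 of these 5, both MAP1LC3B pairs and that of CTSD, r fell to between 0.217 and 0.309 when the 2 animals farthest from the median were left out, and BECN1 and GABARAPL2 had 0.676 and 0.466.

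The wider pathway was read from 7 further lists of 113 genes, of which 77 had a named probe set and 73 were tested. No gene of these lists passed limma's test in either direction, 38 were higher and 35 lower in CR, and the median log2 difference was 0.0079. At an unadjusted p under 0.05 there were 2 of 73, RB1CC1 and RRAGB, beside 2.43% of all tested probe sets. RB1CC1, which encodes FIP200, the scaffold of the ULK complex, had control signals of 12.40, 11.47, 12.03, 11.64 and 12.30, and CR signals from 11.96 in CR 2 over 12.39 to 12.69 in CR 6. Controls 2 and 4 were below every CR animal and control 1 among the higher ones. The difference was 0.42 ± 0.18 (SE; interval 0.040 to 0.80; limma adjusted p = 0.999), and 0.34 without control 4. For RB1CC1 it was 0.29 without control 2 (limma unadjusted p = 0.118). With RNA quality ratios as covariates it was 0.30 (limma unadjusted p = 0.133). The further initiation genes, 9 tested, had 6 higher and 3 lower, with -0.26 ± 0.15 for NRBF2, a subunit of the Beclin complex. Its other probe set gave -0.060.

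Regulators that sense nutrients, 21 tested, had 10 higher and 11 lower in CR, with a median of -0.011. RRAGB, a small GTPase that brings mTORC1 to the lysosome, had control signals of 8.36, 8.62, 8.35, 8.35 and 8.69, and CR signals from 7.72 in CR 5 over 8.04 to 8.51 in CR 1. Of the CR animals 7 of 8 were below the control mean. The difference was -0.39 ± 0.19 (SE; limma adjusted p = 0.999), with an unadjusted p of 0.0498. PRKAG3, the AMPK subunit found mainly in fast glycolytic muscle, differed by 0.82 ± 0.44 without passing. Its signal ran from 12.57 to 13.59 in controls, and in CR from 11.58 in CR 1 over 14.05 to 15.10 in CR 4, wider on both sides.

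Mitophagy and receptor genes outside the list of 32 were tested for 10 of 13, with 5 higher and 5 lower. NBR1, a receptor related to SQSTM1, differed by -0.67 ± 0.36 (SE), with an SD of 0.28 in controls and 0.87 in CR. In controls it ran from 8.46 to 9.07, and in CR from 6.34 in CR 8 to 9.17 in CR 6, and without CR 8 the difference was -0.42. NIPSNAP1, a mitochondrial protein that recruits autophagy receptors, differed by -0.69 ± 0.36, or by -0.48 without control 4, and was dim, with a mean signal of 189. Neither passed limma's test. The 3 further conjugation genes were lower, -0.16 ± 0.21 for ATG4C and -0.10 ± 0.26 for ATG10. The ATG4C value was -0.059 without control 1 and -0.085 without control 4, and that of ATG10 was -0.27 without control 4 and 0.036 without control 5. All the same, a second ATG10 probe set that was too dim to be tested moved the gene's difference, taken as the mean over its probe sets, to 0.92 (adjusted p = 0.998 in limma). The fusion machinery, 5 tested, had 4 higher, with 0.13 ± 0.17 for RAB7A, the GTPase of late endosomes, and 0.090 ± 0.18 for EPG5, a tether. Without control 4 these were 0.017 for RAB7A and 0.019 for EPG5, and EPG5 was 0.016 without CR 6. Their other probe sets gave -0.020 for RAB7A and from -0.49 to 0.20 for EPG5.

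Lysosomal hydrolases had 4 higher and 11 lower in CR of 15 tested, with a median of -0.10 and none called. LGMN, the asparagine-specific protease legumain, differed by 0.38 ± 0.18 (SE; interval -0.0017 to 0.76), with 7 of 8 CR animals above the control mean. It ran from 10.76 in control 4 to 11.52 in controls and from 11.02 to 12.08 in CR, and the difference was 0.29 without control 4. MAN2B1, a lysosomal mannosidase, differed by -0.38 ± 0.25. Lysosomal membrane proteins and subunits of the V-ATPase, the pump that acidifies the lysosome, had 9 higher and 1 lower of 10 tested, with a median of 0.078. ATP6V1E1 differed by 0.27 ± 0.15 and ATP6V1H by 0.41 ± 0.42. The ATP6V1H value rested on control 5, whose signal was 7.31 against 9.33 to 10.48 in the other controls, and without it the difference was -0.13. Without control 4 it was 0.66. The other tested probe set of ATP6V1H gave -0.027.

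**Figure D4:**
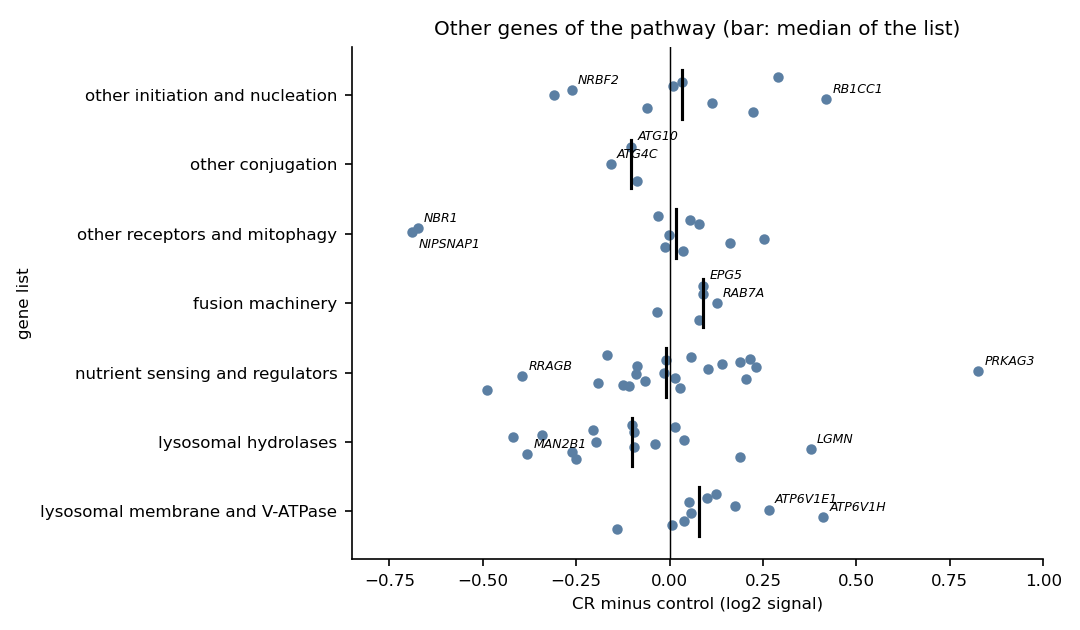
Difference between CR and control in log2 signal (x axis) for each tested gene of 7 further pathway lists (y axis), 1 point per gene, with the median of each list as a black bar and the 2 genes of lowest p in each list named. The medians lie between -0.10 and 0.090, no gene passed limma's test, and PRKAG3 (0.82) and NIPSNAP1 (-0.69) are the farthest from 0.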

How the data were processed

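Total RNA of 13 animals was made into biotin-labelled cRNA by the Affymetrix protocol, per the labels. The authors deposited 1 linear intensity per probe set and array, for which the submitters' processing notes name MAS5, without a version. Detection calls were not used. Each array had a 2% trimmed mean of 500. Of 52865 probe sets 99 control ones were removed. Signals under 1 (137 values) were set to 1 and log2 transformed, and the dimmer 50% by mean were dropped. The remaining 26383 had mean signals down to 107, and all 22 genes passed. Each gene was read from its brightest probe set over the 13 arrays. Of the 43 probe sets of the genes 40 were tested. A probe set annotated to several genes was not used.

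The diets were compared in R 4.3.3 by limma 3.58.1 (lmFit, then eBayes with a trend), two-sided, which was checked on simulated data. An exact permutation test was run over all tested probe sets, and correlations used 100000 permutations. Every gene was named. Each control value and the lowest, median and highest CR value are given for the 3 of lowest limma p in each role. The same holds for each ATG8 gene. The 2 genes of lowest limma p in each further list were also named. The genes, lists and tests were chosen with earlier results of these data known. Precision is limited by the number of arrays. No batch or date is given in the sources used here. Same-numbered animals are not paired by the labels. Figures were drawn with matplotlib 3.10.9.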

Additional observations from a re-analysis of the deposited data

Results flagged for a closer look

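Within each diet, animals far from the rest were sought for the 22 genes and the 14 further genes named, 72 groups in all. There were 5 such values, where chance flags about 1 in 20 groups, or 3.60. ATG9A was highest in CR 8, at a log2 signal of 11.44, with the next CR animal at 11.01. GABARAPL2 was highest in CR 3, at 14.57, with the next at 14.12. CTSL was highest in CR 2, at 11.10, with the next at 10.90. CTSD was highest among controls in control 2, at 12.87, with the next at 12.50. ATP6V1H was lowest among CR animals in CR 1, at 8.73, with the next at 9.87.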

How the results depend on the processing

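None of the 22 genes and none of the further pathway genes passed under any of the 10 planned settings or with an animal left out, and no pair of genes correlated past its threshold under the settings run for pairs. Over all probe sets, 0 passed under each setting run, and 0 to 1 with an animal left out (ODAD3 without control replicate 1, LXN without control replicate 5). Of 197 differences of the 22 genes under planned settings 177 kept their direction and 20 turned, from differences between -0.12 and 0.098. The replicate number as a block sets up a pairing that the labels do not state (same-numbered animals correlated with r from -0.20 to 0.020). CR 6, CR 7 and CR 8 have no same-numbered control and do not enter the diet difference there. It thus compared only CR 1 to CR 5 with the controls. With this block ATG9A was -0.066, ATG3 0.029, ATG4A -0.11, GABARAPL2 0.021, TFEB -0.13, LAMP2 0.083, CTSD -0.016 and EPG5 -0.028. The block changed no call. With RNA quality ratios (3-prime over 5-prime, from GAPDH and actin controls) as covariates, ATG3 was 0.011, ATG4A -0.019, GABARAPL2 0.049, TFEB -0.037, LAMP2 0.069 and EPG5 -0.00053. With these covariates the median of the lysosomal genes was 0.032. With array quality weights ATG9A was -0.0088 and TFEB -0.068, and after quantile normalization ATG5 was -0.0067. With all probe sets of a gene averaged, ATG13 was -0.18, PIK3C3 0.016, ATG3 0.066, ATG4B 0.091, GABARAPL2 0.053, ATG10 0.92, and the median of the conjugation enzymes 0.042. With that mean r was -0.343 for SQSTM1 and GABARAPL1 and 0.406 for CTSD and LAMP2. Other probe sets, set beside the brightest after seeing the data, gave -0.16, -0.13 and -0.53 for ATG13, -0.062 for ATG5, 0.17 for GABARAPL2, 0.084 for LAMP2 and -0.048 for CTSD. Beyond the animals and probe sets that entered each setting, the cause of these turns was not tested. With 1 animal left out at a time, 9 of the 22 genes kept their direction (ULK1, ULK2, ATG13, BECN1, ATG7, ATG16L1, GABARAP, SQSTM1 and CTSD). The ranges of the others were -0.013 to 0.11 for UVRAG, -0.36 to 0.027 for PIK3C3, -0.077 to 0.21 for ATG9A, -0.14 to 0.047 for ATG3, -0.025 to 0.11 for ATG4A, -0.23 to 0.13 for ATG4B and -0.039 to 0.081 for ATG5. They were -0.24 to 0.048 for MAP1LC3B, -0.23 to 0.0022 for GABARAPL1, -0.14 to 0.040 for GABARAPL2, -0.18 to 0.15 for TFEB, -0.24 to 0.040 for LAMP2 and -0.18 to 0.072 for CTSL. ATG10 ran from -0.27 to 0.036, ATP6V1H from -0.13 to 0.66, and r of SQSTM1 and GABARAPL1 from -0.0056 to 0.245. The median of the ATG8 proteins ran from -0.082 to 0.0075, and that of the lysosomal genes from -0.057 to 0.058.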
